A study of Mus musculus with 8 samples.

Results

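The AMPA-type glutamate receptor genes were described in whole-brain bulk RNA-seq of 3 C57BL/6NCrl mice aged 56–62 days. They comprise 10 of the 24343 genes measured and were taken by gene symbol: the pore-forming subunits Gria1, Gria2, Gria3 and Gria4, the transmembrane AMPA receptor regulatory proteins (TARPs) Cacng2, Cacng3, Cacng4 and Cacng8, and the cornichons Cnih2 and Cnih3. All 10 were found, with 22 transcripts among them. Mice 1 and 2 gave 3 libraries each and mouse 3 gave 2, all of a single untreated condition, so that the only groups are the individual mice. What separates the libraries of a mouse was not stated, and the sex of the animals is not in the labels. Tests between the mice treat libraries as replicates and therefore measure only the spread between these libraries, whereas each SD over mice has n = 3. Levels are in FPKM, the sequenced fragments per kilobase of transcript scaled to the total of mapped fragments, summed over the transcripts of a gene. The libraries hold 1.31–2.02 gigabases on transcripts each. Without a stated read length the count of reads behind a value is unknown, and precision is given as the spread between mice or libraries.

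AMPA receptors carry most of the fast excitatory transmission in the brain. The subunits assemble around a cation channel that opens when glutamate binds. TARPs hold receptors at the postsynaptic density and slow their closing and desensitization, and Cacng2 encodes stargazin, the founding member. Cornichons travel with the receptor from the endoplasmic reticulum and also slow its kinetics. Each subunit gene carries alternative exons, flip and flop, which code for a stretch of the extracellular domain beside the membrane and of which a transcript normally keeps a single one. Flop forms generally desensitize faster.

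The flip and flop exons of Gria1, Gria2 and Gria4 are shown because the deposited transcripts of these genes are told apart by them. Each exon is 115 bases long. They were read from the GENCODE M21 annotation of GRCm38 (the build named by the submitters, mm10), 5′ to 3′ on the coding strand, and capitals mark the bases at which flip and flop of the same gene differ.
Gria1 flip, chr11:57310608-57310722, plus strand: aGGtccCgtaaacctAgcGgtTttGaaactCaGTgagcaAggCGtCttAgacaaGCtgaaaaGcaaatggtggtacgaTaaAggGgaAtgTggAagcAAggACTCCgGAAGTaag
Gria1 flop, chr11:57309769-57309883, plus strand: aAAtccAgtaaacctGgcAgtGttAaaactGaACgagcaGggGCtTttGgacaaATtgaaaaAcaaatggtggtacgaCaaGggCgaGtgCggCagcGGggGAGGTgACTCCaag
Gria2 flip, chr3:80690404-80690518, minus strand: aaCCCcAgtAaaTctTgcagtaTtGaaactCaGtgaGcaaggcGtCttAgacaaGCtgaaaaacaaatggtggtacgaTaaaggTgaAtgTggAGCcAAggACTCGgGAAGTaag
Gria2 flop, chr3:80691320-80691434, minus strand: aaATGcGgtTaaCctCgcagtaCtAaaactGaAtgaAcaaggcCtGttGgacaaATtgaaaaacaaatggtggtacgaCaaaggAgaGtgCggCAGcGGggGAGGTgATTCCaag
Gria4 flip, chr9:4427030-4427144, minus strand: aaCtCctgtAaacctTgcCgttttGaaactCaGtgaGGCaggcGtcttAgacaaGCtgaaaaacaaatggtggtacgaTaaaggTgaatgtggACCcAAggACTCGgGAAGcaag
Gria4 flop, chr9:4432773-4432887, minus strand: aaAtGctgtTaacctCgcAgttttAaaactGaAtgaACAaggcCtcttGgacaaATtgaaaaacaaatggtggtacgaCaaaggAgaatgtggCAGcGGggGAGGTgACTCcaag
In all 4 subunit genes the flop exon lies upstream of the flip exon. The exons of Gria3 lie at chrX:41654810-41654924 (flop) and chrX:41669501-41669615 (flip) on the plus strand. Flip and flop of the same gene differed at 36 bases in Gria1, 36 in Gria2, 32 in Gria3 and 31 in Gria4. Identity between genes was 87.8–94.8% for exons of the same form and 67.8–73.0% for exons of the other form, so that each exon was closer to its counterpart in another subunit than to its neighbour in its own gene.

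A segment of 45 coding bases around the Q/R site, in the loop that lines the channel, is shown because Gria2 is set apart from the other subunits there. Capitals mark the Q/R codon, and positions in the genome are on GRCm38.
Gria1, chr11:57243070-57243114, plus strand: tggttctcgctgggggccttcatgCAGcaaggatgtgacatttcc
Gria2, chr3:80706893-80706937, minus strand: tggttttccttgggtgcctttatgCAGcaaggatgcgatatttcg
Gria3, chrX:41610241-41610285, plus strand: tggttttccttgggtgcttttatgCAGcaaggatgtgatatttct
Gria4, chr9:4464119-4464163, minus strand: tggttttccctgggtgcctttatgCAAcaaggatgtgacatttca
All 4 genomic codons read glutamine, CAG in Gria1, Gria2 and Gria3 and CAA in Gria4. In the Gria2 transcript this codon is edited to arginine by the enzyme that Adarb1 encodes, and channels that contain the edited subunit pass little calcium. Over the segment, 42 of 45 bases of Gria3, 40 of Gria4 and 37 of Gria1 were identical to Gria2. FPKM values do not show editing. Adarb1 itself was measured at 40.7 ± 3.01 FPKM (SD, n = 3 mice).

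Gria1, Cnih2 and Gria2 had the highest means of the 10 genes, and these means differed by less than their SD over mice. Gria1 (chr11:57011618-57330244) averaged 82.2 ± 7.70 FPKM (SD, n = 3), Cnih2 (chr19:5092868-5098521) 78.3 ± 18.8 FPKM and Gria2 (chr3:80684936-80802791) 77.9 ± 19.3 FPKM. The mean of Gria1 was above that of Gria2 by a ratio of 1.06, yet Gria1 exceeded Gria2 in only 2 of 8 libraries, both of mouse 3. In mice 1 and 2 Gria2 lay above Gria1 without overlap, at 86.7–93.8 against 75.0–79.6 FPKM. In mouse 3 Gria2 lay below Gria1, at 60.2 and 51.0 against 91.6 and 90.7 FPKM. Gria4 (chr9:4417893-4796234) followed at 48.9 ± 6.46 FPKM and Gria3 (chrX:41401301-41678601) at 38.1 ± 7.24 FPKM. Gria4 was higher than Gria3 in 7 of 8 libraries and in all 3 mice. The longest deposited models of Gria2 have 6841 bases, while its longest GENCODE transcript has 10371 bases. The lengths were closer in Gria1 (5738 against 5546), Gria3 (5195 against 5206) and Gria4 (5447 against 5441). The level and shares of Gria2 therefore hold for the deposited models.

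Among the TARPs, the order Cacng3, Cacng2, Cacng8 and Cacng4 held in the mean of each mouse. Cacng3 (chr7:122671744-122769394) averaged 31.1 ± 7.25 FPKM (SD, n = 3) and was above Cacng2 in 8 of 8 libraries. Cacng2 (chr15:77993623-78119280) averaged 23.6 ± 4.87 FPKM and Cacng8 (chr7:3394117-3415605), the TARP best known from the hippocampus, 20.7 ± 3.39 FPKM. The range of mouse means of Cacng3 overlapped that of Cacng2, and likewise Cacng2 and Cacng8. Cacng4 (chr11:107734780-107794464) was the lowest of all 10 genes at 13.6 ± 0.55 FPKM. Its deposited transcript model is 984 bases long, of which 981 bases code for protein without the stop codon, while the longest GENCODE transcript of Cacng4 has 3500 bases. The models of Cacng2 (2887 against 5510 bases), Cacng3 (1526 against 2777) and Cacng8 (1380 against 1897) were also shorter than the longest annotated transcript, so the order of the TARPs holds for these models.

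Cnih2 exceeded Cnih3 (chr1:181352628-181460641) in 8 of 8 libraries, and the libraries of these genes did not overlap. Cnih3 averaged 15.7 ± 0.83 FPKM (SD, n = 3), and the ratio of Cnih2 to Cnih3 was 5.0. With 3 mice an exact paired sign test cannot give a p below 0.25, so no order of levels was tested.

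**Figure D1:**
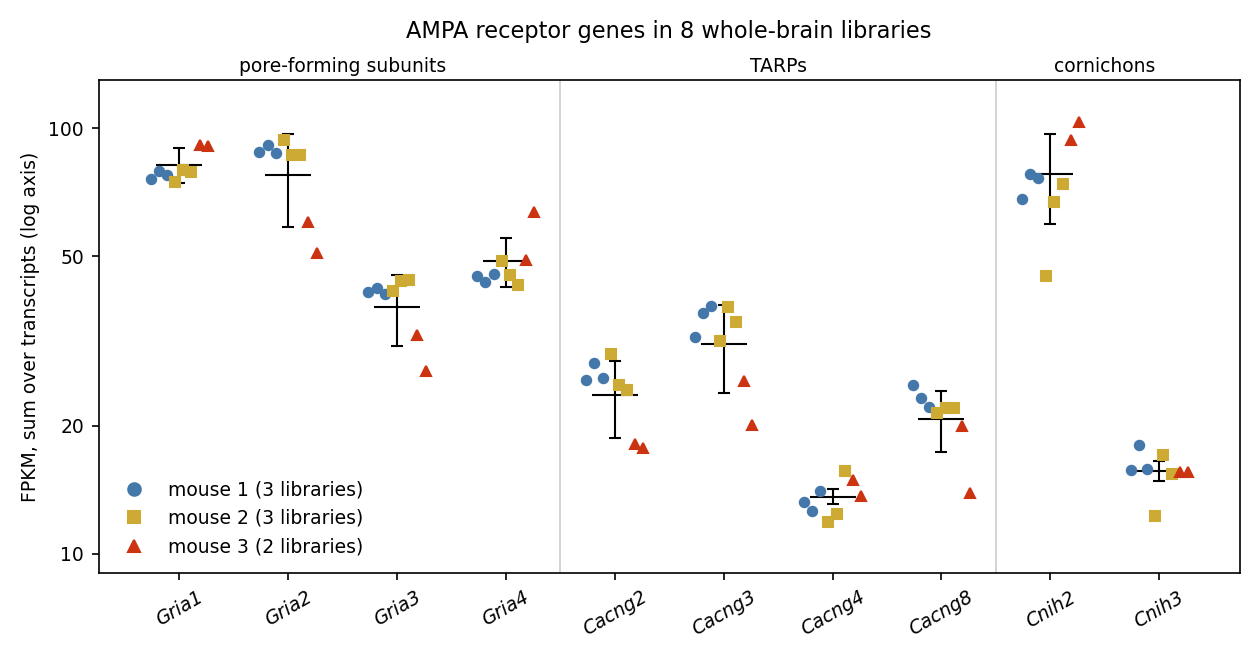
FPKM of the 10 AMPA receptor genes (log axis), with a point for each of the 8 libraries in the colour and shape of its mouse, and the mean over 3 mice with its SD as a horizontal line and bars. The libraries of mice 1 and 2 lie together but for mouse 2 library 1, which is low in Cnih2 and Cnih3, and those of mouse 3 lie below them in Gria2, Gria3, Cacng2, Cacng3 and Cacng8 and above them in Gria1, Gria4 and Cnih2.

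The 4 subunits summed to 247 ± 12.4 FPKM (SD, n = 3 mice), the 4 TARPs to 89.0 ± 14.9 FPKM and the cornichons to 93.9 ± 19.0 FPKM. The NMDA receptor genes, coding for the glutamate receptors that open only when the membrane is depolarized, summed to 88.0 ± 14.5 FPKM over 7 genes, of which Grin1, the obligatory subunit, was the highest at 52.3 ± 10.6 FPKM. The kainate and delta receptor genes summed to 91.9 ± 5.41 FPKM over 7 genes, led by Grik5 at 35.8 ± 1.6 FPKM. AMPA receptor subunits thus stood at 2.88 ± 0.41 times the NMDA sum and 2.70 ± 0.08 times the kainate and delta sum. The ratio to the NMDA sum lay between 2.49 and 3.03 in 7 libraries and at 3.87 in mouse 3 library 2. That to the kainate and delta sum ranged from 2.493 to 3.125 over the 8 libraries, a spread that its SD over mouse means does not show.

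The comparison between the mice asked how far the levels of these genes vary between animals of the same strain and age. Mouse 3 stood apart, with lower Gria2, Gria3, Cacng2 and Cacng3 and with higher point values of Gria1, Gria4 and Cnih2. The limma moderated F-test on log2(FPKM + 1) called 4 of the 10 genes at an adjusted p under 0.05, all of them lower in mouse 3, where 25.5% of the 13001 genes averaging 1 FPKM or more were called between the mice and 11.3% were called and lower in mouse 3 (14.1% higher). All 4 calls were lost without mouse 3 library 2, in a fit that takes the remaining library of mouse 3 to vary like the others. Most calls among all genes tested were lost as well. The differences of mouse 3 were then -0.56 in Gria2, -0.36 in Gria3, -0.51 in Cacng2 and -0.45 in Cacng3. With all libraries they were -0.67, -0.50, -0.53 and -0.62. Fits without mouse 1 library 1, 2 or 3 called 1835, 1711 and 1635 genes, against 3310 with all libraries. Each of the 4 genes was called in 7 of the 8 fits that left out a library. The exception was always the fit without mouse 3 library 2, and not that without mouse 3 library 1, which also leaves mouse 3 with a single library. The direction of the 4 genes was the same in each of the 15 alternative fits.

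The values of Gria2, whose product keeps calcium out of the channel, were 88.0, 91.5 and 87.5 FPKM in mouse 1, 93.8, 86.8 and 86.7 FPKM in mouse 2, and 60.2 and 51.0 FPKM in mouse 3. Both libraries of mouse 3 lay below all 6 others. The difference of mouse 3 from the mean of mice 1 and 2 was -0.67 ± 0.08 (SE) on the log2(FPKM + 1) scale (limma adjusted p = 0.00699). Without mouse 3 library 2 it was -0.56, with an adjusted p of 0.0554. Mice 1 and 2 differed by less than 0.01 on this scale.

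Gria3 followed the same pattern, with 41.2, 42.1 and 40.9 FPKM in mouse 1, 41.4, 43.7 and 44 FPKM in mouse 2, and 32.7 and 26.8 FPKM in mouse 3. Its difference was -0.50 ± 0.09 (limma adjusted p = 0.0145), and -0.36 with an adjusted p of 0.0884 without mouse 3 library 2. The groups did not overlap, and mouse 3 library 2 was the lowest.

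Gria1 went the other way in its point values. It was measured at 76.0, 79.6 and 77.5 FPKM in mouse 1, 75.0, 79.6 and 78.9 FPKM in mouse 2, and 91.6 and 90.7 FPKM in mouse 3. Both libraries of mouse 3 were above the other 6. The difference of 0.23 ± 0.07 did not pass the test (limma adjusted p = 0.0825), and it was -0.07 when each library was scaled to the same total, a scaling that moved the median of all genes tested to -0.23, so that relative to that median it was 0.16. With the trend of each library along transcript length removed it was 0.38, with an adjusted p of 0.0113.

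Gria4 values were 45.0, 43.6 and 45.4 FPKM in mouse 1, 48.7, 45.2 and 42.9 FPKM in mouse 2, and 49.0 and 63.6 FPKM in mouse 3. The 2 libraries of mouse 3 differed more from each other than mouse 3 library 1 did from the rest. The difference of 0.30 ± 0.10 did not pass the test (limma adjusted p = 0.127), and it was 0.12 without mouse 3 library 2 and 0.49 without mouse 3 library 1, where the adjusted p was 0.0205.

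Cacng2 was measured at 25.6, 28.0 and 25.9 FPKM in mouse 1, 29.5, 24.9 and 24.2 FPKM in mouse 2, and 18.1 and 17.7 FPKM in mouse 3. The libraries of mouse 3 agreed closely and lay below the rest, with a difference of -0.53 ± 0.09 (limma adjusted p = 0.0144) that was -0.51 without mouse 3 library 2 (adjusted p = 0.111). Cacng3, a close relative of stargazin, gave 32.2, 36.7 and 38.2 FPKM in mouse 1, 31.7, 38.1 and 35.0 FPKM in mouse 2, and 25.5 and 20.1 FPKM in mouse 3. Its difference was -0.62 ± 0.12 (limma adjusted p = 0.0185), and -0.45 with an adjusted p of 0.159 without mouse 3 library 2.

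Cacng8 was at 25.0, 23.2 and 22.1 FPKM in mouse 1, 21.4, 22.0 and 22.0 FPKM in mouse 2, and 19.9 and 13.9 FPKM in mouse 3. Its difference of -0.42 ± 0.12 did not pass the test (limma adjusted p = 0.0692), and mouse 3 library 2 alone lay far from the rest. Cacng4 ranged from 11.9 to 15.7 FPKM over the 8 libraries, with mouse 3 at 14.9 and 13.6 FPKM inside the range of the others and a difference of 0.10 ± 0.11 (limma adjusted p = 0.757) that turned to -0.43 with the length trend removed. With libraries scaled to the same total it was 0.05 relative to the median of all genes.

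Cnih2 had the widest range between libraries of the 10 genes, with 68.1, 78.0 and 76.3 FPKM in mouse 1, 44.9, 67.0 and 73.8 FPKM in mouse 2, and 93.9 and 104 FPKM in mouse 3. Mouse 2 library 1 was low and both libraries of mouse 3 were high. The difference of 0.55 ± 0.17 missed the threshold (limma adjusted p = 0.0597) and passed it without mouse 2 library 1 (0.45, adjusted p = 0.0219) and without mouse 2 library 3 (0.62, adjusted p = 0.0382). It was not called in 12 of 15 alternative fits, with 0.27 after removal of the length trend (limma adjusted p = 0.153). With libraries scaled to the same total it was 0.26 (limma adjusted p = 0.107), or 0.48 relative to the median of all genes. Without mouse 3 library 2 the difference was 0.48. Cnih3 ranged from 12.3 FPKM in mouse 2 library 1 to 18.1 FPKM in mouse 1 library 2, with mouse 3 at 15.5 FPKM in both libraries and a difference of -0.01 ± 0.12 (limma adjusted p = 0.583), with the same sign in 11 of 15 alternative fits.

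In 8 of the 10 genes the libraries of mouse 3 did not overlap the other 6, 3 above and 5 below, where 48.3% of all genes tested did not overlap, 26.5% above and 21.7% below.

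**Figure D2:**
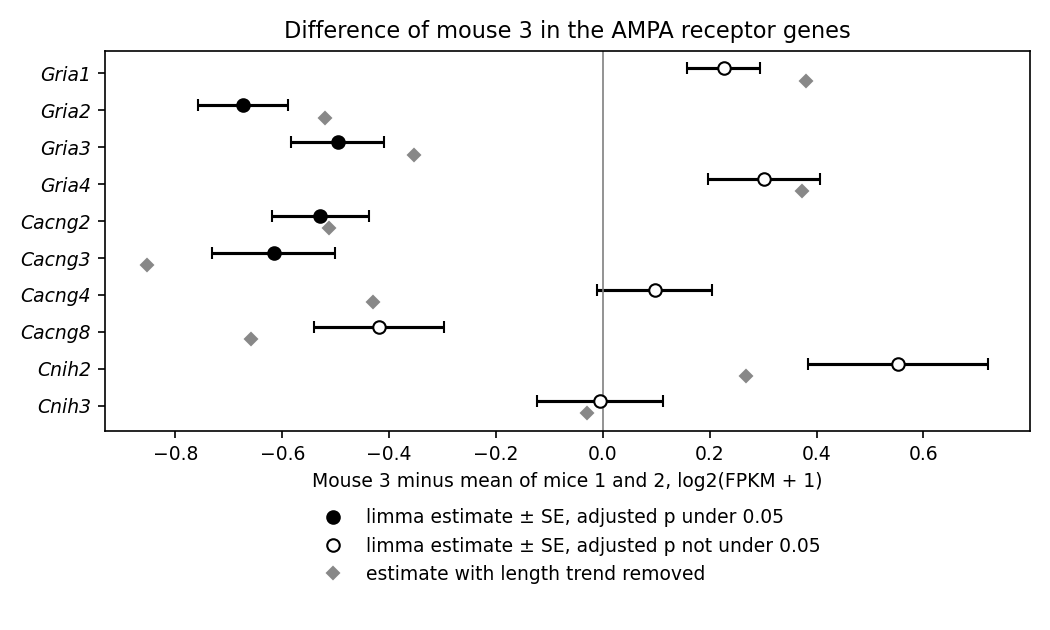
Difference of mouse 3 from the mean of mice 1 and 2 on the log2(FPKM + 1) scale for each gene, with the SE of the limma fit as bars, filled circles for an adjusted p under 0.05, and diamonds for the estimate with the length trend of each library removed. Gria2, Gria3, Cacng2 and Cacng3 are filled and lie at -0.67, -0.50, -0.53 and -0.62, and the sign of Cacng4 depends on the length trend.

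Other features moved with mouse 3. Its libraries gave relatively lower values for long transcripts, with a rank correlation across genes between the deviation from the mean and transcript length of -0.36 in library 1 and -0.58 in library 2, against 0.18 to 0.50 in the other 6 libraries. With that trend removed, 6 of the 10 genes were called, where 19.8% of all genes tested were, Gria1 as higher and Gria2, Gria3, Cacng2, Cacng3 and Cacng8 as lower. Marker counts below are to be read against the 25.5% of all genes that were called. Markers of oligodendrocytes (Mbp, Mog, Mag and Mobp) summed to 1429–1575 FPKM in mice 1 and 2 and to 3171–3875 FPKM in mouse 3, and 2 of 4, Mbp and Mobp, were called higher. Mbp alone made up 1253–1365 FPKM and 2836–3495 FPKM of these sums, and Mog (0.39, limma adjusted p = 0.0893) and Mag (0.25, 0.101) did not pass. Astrocyte markers (Aqp4, Gfap, Slc1a3, Aldh1l1 and Gja1) summed to 346–368 FPKM and 523–559 FPKM, with 5 of 5 called higher, and markers of Bergmann glia, the radial astrocytes of the cerebellum (Gdf10, Hopx and A2m), to 52.0–64.5 FPKM and 96.6–122 FPKM, with 1 of 3, Hopx, called higher and carrying the sum at 40.1–50.8 FPKM and 84.0–107 FPKM, while Gdf10 was at 8.74–10.3 FPKM and 8.82–9.59 FPKM. Pan-neuronal markers (Snap25, Syt1, Rbfox3, Tubb3 and Eno2) summed to 1735–1875 FPKM in mice 1 and 2 and 1495–1582 FPKM in mouse 3. Of these, 2 of 5, Syt1 and Rbfox3, were called lower. Snap25 made up 1009–1119 FPKM of the sums in mice 1 and 2 and 915 and 1084 FPKM in mouse 3. The libraries of mouse 3 overlapped the others in Snap25 and Tubb3. Markers of forebrain excitatory neurons (Neurod6, Tbr1, Slc30a3, Emx1, Nrgn and Neurod2) summed to 488–599.6 FPKM and 453–458 FPKM. Of these, 3 of 6, Tbr1, Nrgn and Neurod2, were called lower. Nrgn made up 409.5–517.6 FPKM of the sums in mice 1 and 2 and 396 FPKM in each library of mouse 3. Slc30a3 and Emx1 overlapped, and Emx1 had a difference of 0.01. The other 11 marker lists, of neurons of other regions, interneurons, oligodendrocyte precursors, microglia, vessels, choroid plexus and blood, had 10 of 48 tested genes called, 4 higher and 6 lower. None of the 72 markers was at 0 in every library. The part of these features in the differences of the receptor genes was not tested, and in bulk tissue fewer cells of a type and less RNA per cell cannot be told apart.

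The composition of the subunit pool was alike in mice 1 and 2, and its values in mouse 3 lay apart from theirs without passing the test after adjustment. Gria2 made up 35.2, 35.6 and 34.8% of the summed subunit FPKM in the libraries of mouse 1, 36.3, 34.0 and 34.3% in mouse 2, and 25.8 and 22.0% in mouse 3. Gria1 made up 30.4, 31.0 and 30.9% in mouse 1, 29.0, 31.2 and 31.3% in mouse 2, and 39.2 and 39.1% in mouse 3, so that it replaced Gria2 as the largest component. The share of Gria4 was 17.0–18.8% in mice 1 and 2 and 21.0 and 27.4% in mouse 3, and that of Gria3 was 16–17.4% against 14 and 11.6%. The groups did not overlap for any of the 4 subunits. For comparison, the levels of 48.3% of all genes tested did not overlap. The 4 shares are parts of the same sum, so a lower share of Gria2 raises the others. Gria4 was at 49.0 FPKM in mouse 3 library 1 and 48.7 FPKM in mouse 2 library 1, yet its shares were 21.0% and 18.8%. Neither the 4 shares nor the tests on them below are therefore independent.

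Within the auxiliary genes, the share of Cacng4 among the 4 TARPs was 12.5–16.2% in mice 1 and 2 and 19.0 and 20.9% in mouse 3, and that of Cnih2 among the cornichons was 78.6–82.8% against 85.8 and 87.0%. The shares of Cacng2, Cacng3 and Cacng8 among the TARPs averaged 26.4 ± 1.13%, 34.7 ± 2.62% and 23.2 ± 0.53% (SD, n = 3 mice). An exact permutation test, one-sided by construction, compared each of the 9 shares between the mice over all 280 groupings of the libraries. It gave unadjusted p under 0.05 for 6 shares, those of the 4 subunits (0.0143 to 0.0357), Cacng4 (0.0321) and Cnih2 (0.0214), and all 6 had an adjusted p of 0.0536, so that 0 of 9 passed the threshold. The smallest p the groupings can give is 0.00357. However, 10 of the 280 groupings keep the libraries of mouse 3 together, a fraction of 0.0357, and differ only in how they split mice 1 and 2. Where mouse 3 alone stands apart, p can lie anywhere up to 0.0357, depending on that split. For such a pattern the adjusted test can hardly decide, and a miss does not show that the shares are alike. With only the highest transcript of each gene in place of the sum, 6 of 9 passed, with adjusted p between 0.0321 and 0.0482, and without mouse 2 library 1 the shares of Gria2 and Gria3 passed (0.0429 each). With the length trend removed 0 passed, the share of Cacng4 overlapped at 13.1–16.8% against 16.8 and 16.7% (exact p = 0.221), and that of Cnih2 was 79.9–83.6% against 84.9 and 84.5% (exact p = 0.118).

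**Figure D3:**
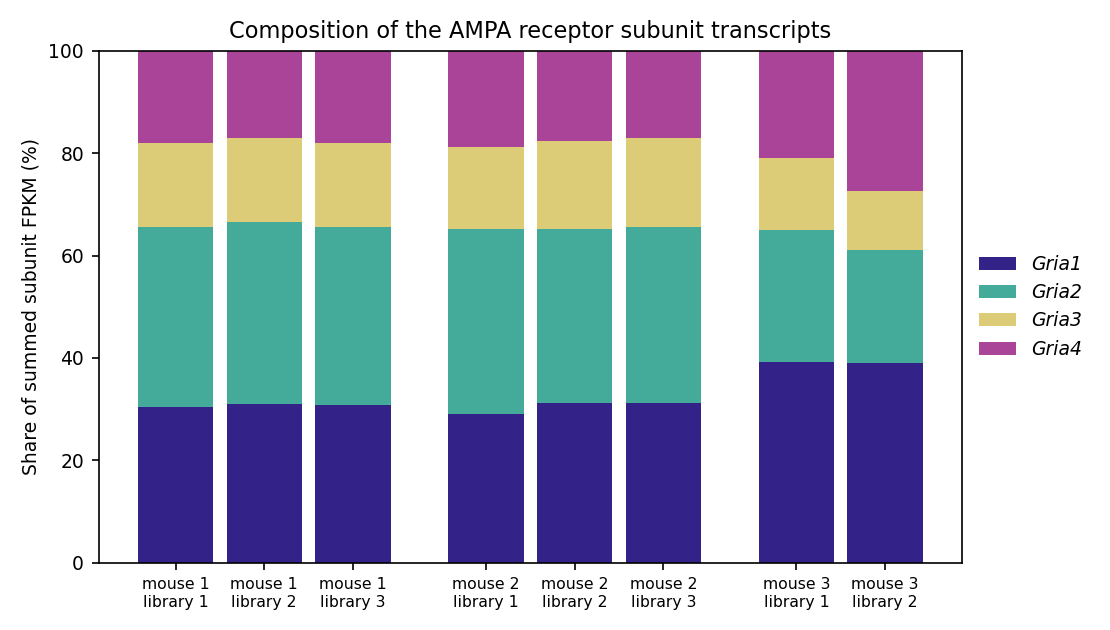
Share of Gria1, Gria2, Gria3 and Gria4 in their summed FPKM (percent, stacked to 100) in each of the 8 libraries. Gria2 takes 34.0–36.3% in the libraries of mice 1 and 2 and 25.8 and 22.0% in those of mouse 3, and Gria1 29.0–31.3% against 39.2 and 39.1%.

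Relative to the subunits, the summed TARPs of the 10 genes stood at a ratio of 0.39 in mouse 1, 0.38 in mouse 2 and 0.31 in mouse 3. The summed cornichons stood at 0.36, 0.30 and 0.49. The TARP sum leaves out Cacng7, a further TARP. Cacng7 averaged 69.1 FPKM in mouse 1, 62.5 in mouse 2 and 78.0 in mouse 3, above each TARP counted. The lower TARP ratio of mouse 3 therefore holds only for the TARPs counted. The 10 genes together made up 0.170–0.205% of the bases read on transcripts.

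The deposited transcripts separate the flip and flop forms in Gria1, Gria2 and Gria4. The flip and flop models of a gene have the same length, 5738 bases in Gria1 (NM_001113325 and NM_008165), 6841 in Gria2 (NM_001083806 and NM_013540) and 5447 in Gria4 (NM_019691 and NM_001113180), so that normalization by length acts equally on the members of each pair. A second flip model of Gria1, NM_001252403, is 5365 bases long and begins with another first exon. Its share of Gria1 swung between 0.045% and 28.0% from library to library, and it was therefore added to NM_001113325. The sums by form were made after the values were seen, and they are described without a test.

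Gria1 flip was at 37.7, 36.2 and 37.7 FPKM in mouse 1, 38.9, 37.7 and 37.3 FPKM in mouse 2, and 54.9 and 58.9 FPKM in mouse 3. Gria1 flop was at 38.3, 43.4 and 39.9 FPKM in mouse 1, 36.1, 42.0 and 41.6 FPKM in mouse 2, and 36.6 and 31.8 FPKM in mouse 3. In mouse 3 flip lay above all 6 other libraries, and flop lay within or below their range. The flip share of Gria1 was 45.5–51.9% in mice 1 and 2 and 60.0 and 65.0% in mouse 3.

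In Gria4 flip lay above and flop below the other libraries in mouse 3. Its flip form was at 11.8–14.3 FPKM in mice 1 and 2 and at 17.5 and 22.7 FPKM in mouse 3, while its flop form was at 13.6–15.5 FPKM and at 8.42 and 12.3 FPKM. The flip share among these transcripts was 43.3–50.8% in mice 1 and 2 and 67.5 and 64.8% in mouse 3.

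In Gria2 both forms were lower in mouse 3. Flip was at 23.9–30.6 FPKM in mice 1 and 2 and at 16.7 and 15.9 FPKM in mouse 3, and flop at 32.5–37.4 FPKM and at 19.7 and 18.6 FPKM. The flip share was 40.7–46.3% in mice 1 and 2 and 45.9 and 46.0% in mouse 3, inside that range. It leaves out NM_001039195, a Gria2 transcript whose deposited locus ends before both exons, although the GENCODE transcript that its identifier matches holds the flop exon. Counted as flop, it would bring the flip share to 27.5–32.6% in mice 1 and 2 and 27.8 and 31.1% in mouse 3, an alternative added after the values were seen.

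**Figure D4:**
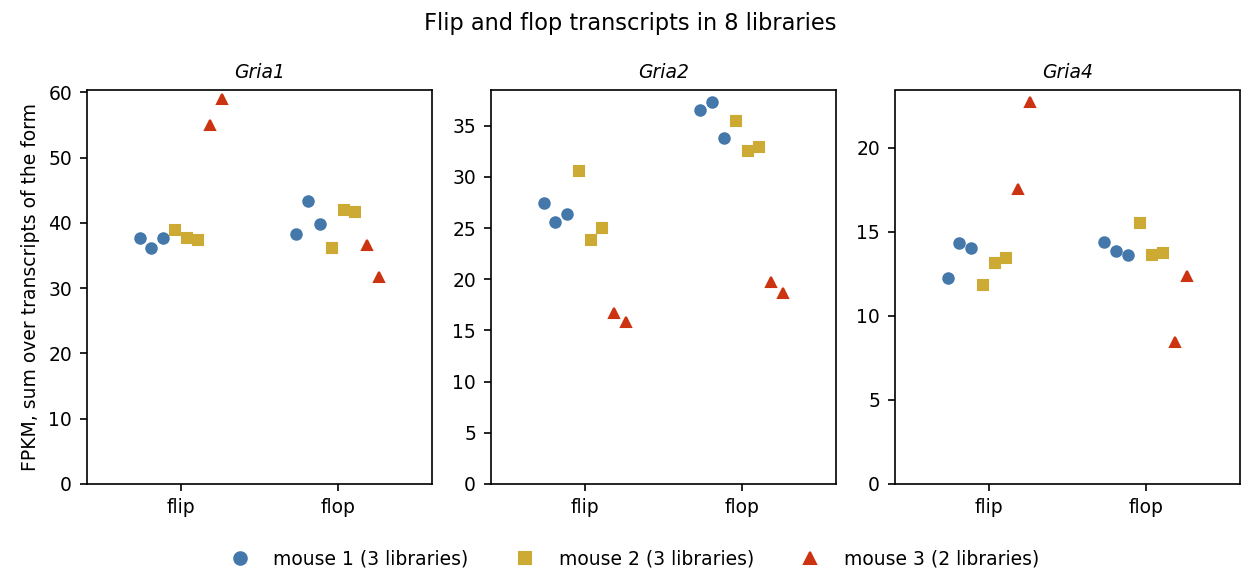
FPKM of the flip and flop transcripts of Gria1, Gria2 and Gria4 (linear axes from 0, scaled per gene), with a point for each library in the colour and shape of its mouse. In mouse 3 flip lies above the other libraries in Gria1 and Gria4, flop lies within or below their range in Gria1 and below it in Gria4, and in Gria2 both forms lie below.

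Not every transcript reached these exons. By its deposited locus, NM_001039195 did not, and it took 27.3–39.5% of the FPKM of Gria2. In Gria4, NM_001113181, a short model of 2338 bases that also ends before them, took 35.5–47.1%. In Gria3, NM_016886 took 72.9 ± 5.93% (SD, n = 3 mice), NM_001290451, a flop form, 19.0 ± 7.12%, NR_104053, a non-coding transcript that holds both exons, 6.20 ± 2.44%, and NM_001281929 1.90 ± 1.24%. NM_016886 and NM_001281929 were both matched to the same annotated flip transcript, which leaves their form undecided here, so no flip share is given for Gria3. The cornichons each had a dominant transcript, NM_009920 with 96.2 ± 0.41% of Cnih2 and NM_001160211 with 92.3 ± 2.66% of Cnih3, and each TARP had a single one.

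Transcript by transcript, the same exact permutation test compared 17 shares between the mice. At an unadjusted p under 0.05 there were 5, and 0 passed after adjustment. The lowest p was that of the Gria2 flop form NM_013540, at 40.3, 37.7 and 34.6% of Gria2 in mice 1, 2 and 3 (exact p = 0.00357, the smallest the groupings can give). With only the transcripts whose deposited lower confidence bound was above 0 in every library, 11 shares were tested. Of these, this 1 share passed (adjusted p = 0.0393 by the same permutation test). The division of reads between transcripts is an estimate of the authors' program, and carries an error that the gene sums do not.

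Genes with the pattern of Gria2 over the 8 libraries were common. The most alike were Top2b, Rock2, Epb4.1l3, Rtf1 and Rab3c, each with Pearson's r of 0.997 on log2(FPKM + 1), and 9.98% of all genes tested had an r above 0.9. These points share 3 animals and the length trend of each library, and with that trend removed the most alike were Epb4.1l3, Bcl7a, Rbm39, Atp2b1 and 9330159F19Rik. Among the receptor genes, with the trend left in, r with Gria2 was 0.97 for Gria3, 0.96 for Cacng2, 0.92 for Cacng3 and 0.88 for Cacng8. It was negative for Gria1 (-0.94), Gria4 (-0.85), Cnih2 (-0.77), Cacng4 (-0.37) and Cnih3 (-0.04). With the trend removed r was 0.84 for Cacng4 and 0.02 for Cnih3, and the others kept their sign, with Gria1 at -0.98, Gria4 at -0.75 and Cnih2 at -0.71. Ordered from the highest r down among the 13001 genes tested, Gria1 stood at place 12285, Gria4 at 10867 and Cnih2 at 10148. With the trend removed they stood at 12869, 10428 and 10114.

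Other genes of AMPA receptor assembly, trafficking and anchoring were followed as a list of 37, all of them tested. Of these, 13 (35.1%, against 25.5% of all genes tested) were called between the mice, 3 higher and 10 lower in mouse 3, and their median difference was -0.13, against 0.02 for all genes tested. All 13 calls were also lost without mouse 3 library 2, as were most calls among all genes tested. The highest was Olfm1, coding for a secreted protein of the synaptic receptor complex, at 313 ± 15.3 FPKM (SD, n = 3). Nsf, the ATPase that takes apart SNARE complexes and binds the Gria2 product, followed at 174 ± 33.0 FPKM, and Dlg4, coding for the scaffold PSD-95 that anchors TARPs, at 170 ± 20.2 FPKM. Abhd12, a serine hydrolase, stood at 118 ± 18.6 FPKM, Cacng7, a further TARP, at 69.9 ± 7.77 FPKM and Prrt2 at 69.7 ± 17.6 FPKM.

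Nsf was lower in mouse 3, with 189, 199 and 196 FPKM in mouse 1, 175, 204 and 200 FPKM in mouse 2 and 148 and 124 FPKM in mouse 3 (limma adjusted p = 0.0184). Prrt2, coding for a presynaptic protein that also binds AMPA receptors, was lower by -0.68 ± 0.08 on the log2(FPKM + 1) scale (adjusted p = 0.00699 by limma). Its libraries in mouse 3, at 52.8 and 45.9 FPKM, lay below the 73.8–84.7 FPKM of the other animals. Gripap1 (-0.62 ± 0.10, adjusted p = 0.0114) and Grip1 (-0.51 ± 0.08, adjusted p = 0.0127), which code for a scaffold of AMPA receptors (Grip1) and its partner, were also lower. The cornichon homologues Cnih1 and Cnih4, which serve export from the endoplasmic reticulum more generally, were higher by 0.80 ± 0.13 and 0.54 ± 0.09 (limma adjusted p = 0.0113 and 0.0109). Dlg4 was higher by 0.29 ± 0.07 (adjusted p = 0.0408), a call lost in 12 of 15 alternative fits, and its difference was 0.22 relative to the median of all genes with libraries scaled to the same total. Olfm1 (0.01 ± 0.11), Cacng7 (0.25 ± 0.09), Abhd12 (0.37 ± 0.10) and Adarb1 (0.18 ± 0.08) did not pass the test. Scaled to the same total, and relative to the median of all genes, they differed by -0.06, 0.18, 0.30 and 0.11.

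Of the NMDA receptor genes, 2 of 6 tested were called, both lower in mouse 3, with Grin1 at -0.54 ± 0.12 (limma adjusted p = 0.0325), and of the 7 kainate and delta receptor genes, 1 was called, Grik3, also lower, where 25.5% of all genes tested were called and 11.3% were called and lower. These calls too were lost without mouse 3 library 2, where the differences were -0.33 for Grin1, -0.41 for Grin2d and -0.26 for Grik3.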

How the data were processed

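Whole-brain RNA with an integrity score above 8 went into Kapa mRNA HyperPrep libraries, which were read on an Illumina NextSeq500. The authors deposited FPKM with confidence bounds, and coverage (a signal, the read depth per base), for 34535 RefSeq transcripts. The submitters' notes name TopHat, Cufflinks and mm10, and strand setting and read length are not given in the sources used here. The members and lists were chosen with earlier results of these data known.

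FPKM were summed per gene and averaged per mouse. Bases read were taken as coverage multiplied by length. The mice were compared with limma 3.58.1 (R 4.3.3) on log2(FPKM + 1) over the 13001 genes that averaged 1 FPKM or more. Its moderated F-test was adjusted after Benjamini and Hochberg, called at 0.05 and first tested on simulated data. Shares were compared by an exact permutation test over 280 groupings. Deposited locus starts were counted from 0, so 1 was added, and 99.3% of 23106 genes then overlapped their RefSeq locus on GRCm38. Exons and codons were read from GENCODE M21. The text names the 10 members, the 6 highest and the 5 of lowest adjusted p among the 37 further genes, Adarb1, and the 5 genes most like Gria2. Alternatives were another pseudocount, other minimum levels, scaling to equal totals (TPM), removal of the length trend by a running median, the highest transcript, a replicate block and leaving out each library. The marker lists of oligodendrocytes and forebrain excitatory neurons were used in part, and their sums and counts hold for the genes named, the rest not being reported here.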

Additional observations from a re-analysis of the deposited data

Results flagged for a closer look

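Of 59 measures over the 8 libraries, 8 held a library far from the others by Dixon's test, which chance does in about 1 of 20 measures, and these measures share their libraries. Mouse 3 library 2 stood out in 5 of them and mouse 2 library 1 in 3.

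In mouse 3 library 2, Gria4 was at 63.6 FPKM with the next library at 49.0, and its share among the subunits was 27.4% with the next at 21.0%. Cacng8 was at 13.9 FPKM with the next at 19.9. The NMDA receptor genes summed to 60.1 FPKM with the next at 82.7, and the ratio of AMPA subunits to them was 3.87 with the next at 3.03. In mouse 2 library 1, Cnih3 was at 12.3 FPKM with the next at 15.3, the 6 TARPs and cornichons summed to 152 FPKM with the next at 180, and Olfm1 was at 247 FPKM with the next at 307. No cause was tested.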

How the results depend on the processing

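Among the values that answer a comparison, 51 of the alternatives left them within 1.5 times or within the spread between mice and 11 moved them. The genes called between the mice numbered 3310 (1835 higher and 1475 lower in mouse 3) and 5634 after scaling to equal totals (807 higher and 4827 lower), which shifted the median difference of all genes from 0.02 to -0.23. Leaving out 1 library gave 126 to 3860 genes and 0 to 6 of the 10 receptor genes, the lowest without mouse 3 library 2. The other alternatives called 4 to 6 receptor genes. Subunit shares past the threshold numbered 0, and 6 with the highest transcript of each gene and 0 to 2 with a library left out. Isoform shares numbered 0, and 1 with lower bounds above 0. The summed level of the 10 genes was 430 FPKM, 302 with the highest transcript only, 1250 TPM after scaling to equal totals, which changes the unit, and 428 to 433 with a library left out. Scaling to equal totals gave differences of -0.0112 for Dlg4 and -0.29 for Olfm1, which are 0.22 and -0.06 relative to the median of all genes. Causes were not tested.

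Library numbers were shared between mice. The deviations of libraries with the same number correlated at 0.0028 to 0.11, which is low but above 0 in all 7 pairs. In 5 of 8 libraries the best correlation was with the same number. The number expected by chance was not taken, so these values do not decide whether the numbers pair the libraries. The main fit does not use the numbers. With the number as a replicate block 2995 genes and 5 of the 10 receptor genes were called, Cnih2 in addition (0.63, adjusted p = 0.0247 by limma).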

Other observations

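Among the 37 further AMPA receptor genes, 6 that were called lie outside the rule for named genes and were picked once their values were known. All 6 were lower in mouse 3, which follows from the choice, since the 3 genes called higher fall under that rule. Of all genes tested, 11.3% were called and lower and 14.1% called and higher. The 6 are the auxiliary subunits Gsg1l (-0.44), Shisa6 (-0.40), Shisa7 (-0.64) and Shisa9 (-0.49), the secreted pentraxin Nptx1 (-0.38) and Adarb2 (-0.39), a relative of the editing enzymes. Values are differences on the log2(FPKM + 1) scale. With the length trend removed 4 of them were not called, with Shisa6 at -0.15, Nptx1 at -0.21, Gsg1l at -0.32 and Adarb2 at -0.25. Without mouse 3 library 2 all 6 calls were lost. Gsg1l was called in 1 of the 8 fits without a library. Frrs1l, Cpt1c and Sacm1l, which act in receptor assembly and export, had differences of -0.15, -0.04 and 0.04 and did not pass the test (limma adjusted p of 0.21, 0.66 and 0.66).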
